A study of Mus musculus with 6 samples.

Results

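The set described here has 10 genes of the 55401 gene IDs in the deposited count table: the transcription factor genes Tcf7, Lef1, Gata3, Bcl11b, Bcl11a and Satb1, the receptor genes Notch1 and Notch2, and the Notch-responsive genes Hes1 and Dtx1. They were found by matching the Ensembl IDs of the table to these symbols in GENCODE M21, a rule that uses no threshold on the values. The symbols themselves were chosen with earlier results of these data known. Their RNA was compared between mouse bone marrow stem and progenitor cells and cells that arose in the marrow of transplanted mice from embryonic stem cells (ESCs).

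Notch signalling starts when a ligand of the Delta or Jagged family on a neighbouring cell binds a Notch receptor. Proteases of the ADAM family and then gamma-secretase cut the receptor, and the freed intracellular part joins the DNA-binding protein RBPJ and a Mastermind coactivator to switch on genes such as Hes1 and Dtx1. In the thymus this signal drives blood progenitors towards the T lineage, where TCF-1 (encoded by Tcf7), GATA3 and later BCL11B are induced and progenitor genes are shut off. Mature T cells keep many of the induced factors although they no longer receive the strong Notch signal of the early thymus.

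The 6 libraries, 3 in each of 2 groups, were each made from 2000 sorted cells with SMART-Seq v4 cDNA and Nextera XT, a tagmentation kit that does not mark strand. The first group is LSK, Lineage-negative Sca-1+ c-Kit+ cells, the marrow compartment that holds blood stem cells and multipotent progenitors, taken from untreated wild-type C57BL/6 mice of 6 to 8 weeks. The other group, called ESC-derived, is Lin-Sca-1+c-Kit- cells sorted from the marrow of primary recipients that had received sorted CD144+ cells. Its labels give the treatment as ESCs differentiation and the genotype as wild type, and CD144 is the endothelial cadherin encoded by Cdh5. The gates differ in c-Kit, so the groups differ in surface phenotype as well as in origin. The labels used here do not give the recipients' strain or conditioning, the antibodies of the lineage gate, or whether the 3 libraries of a group came from separate animals, so p-values measure only the spread between these libraries.

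The libraries held between 41580006 and 49269286 counts. LSK replicate 2 stood between replicates 1 and 3 for 68.4% of the 6391 genes at 20 CPM or more, against 15.8% for each of the others, and counts of called genes that change without it are also given that way. Kit was at 48.7 ± 6.38 CPM in LSK against 0.0896 ± 0.0398 CPM in ESC-derived libraries, and Ly6a, which encodes Sca-1, at 288 ± 39.7 and 711 ± 205 CPM (SD, n = 3). The T cell marker list, 16 genes that include the CD3 chains, summed to 255 to 289 CPM in LSK against 14800 to 15600 CPM in ESC-derived libraries, although the latter are labelled lineage-negative. In a bulk library, fewer cells of a type and less RNA per cell cannot be told apart.

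Stretches of DNA before annotated start sites of 4 of the genes are printed because their genes move together or carry the hexamer TGGGAA, the core that RBPJ binds. Their regulatory activity was not measured. RefSeq start sites on GRCm38.p6 gave 17 windows of 250 bases for 9 of the 10 genes, and the gene without an entry is Hes1. Lef1 and Satb1 have several start sites, and each line refers to the start site of its own window. Window 3 of Lef1 is the only Lef1 window with a match of the motifs searched, and the Satb1 stretch is from window 5, inside the gene. The Bcl11a and Satb1 windows overlap exons of their own genes. The capitals mark a motif match, and every sequence is written 5′ to 3′ on the strand of its gene.
Bcl11a, chr11:24080522-24080551, plus strand, TGGGAA starting 161 bases before the start site: aggggtgctcatTGGGAAttgaatttttcc
Satb1, chr17:51812107-51812136, minus strand, the reverse complement of TGGGAA starting 70 bases before the start site: cctcctccctacTTCCCActctcccctcct
Lef1, chr3:131112541-131112790, plus strand, CAGCTG starting 205 bases before the start site: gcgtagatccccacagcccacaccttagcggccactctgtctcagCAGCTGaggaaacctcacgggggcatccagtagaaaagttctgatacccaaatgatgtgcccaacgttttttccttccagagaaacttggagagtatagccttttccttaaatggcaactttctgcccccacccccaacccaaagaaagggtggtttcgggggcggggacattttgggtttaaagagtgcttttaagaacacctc
Gata3, chr2:9878601-9878850, minus strand, no match of the motifs searched: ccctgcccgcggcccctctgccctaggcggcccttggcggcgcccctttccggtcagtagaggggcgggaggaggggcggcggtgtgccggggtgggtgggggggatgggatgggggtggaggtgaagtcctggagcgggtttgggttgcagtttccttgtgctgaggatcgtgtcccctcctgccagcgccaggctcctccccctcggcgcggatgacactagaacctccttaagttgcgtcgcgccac

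The motifs of 5 factor families were searched on both strands. TGGGAA was found in 2 of the 17 windows, those of Bcl11a and Satb1 printed above, and in 21.6% of 32851 RefSeq windows of the same length. The E-protein motifs CAGCTG or CAGGTG were found in 3 windows, 1 each of Tcf7, Lef1 and Satb1, and in 27.7% of all windows. The TCF/LEF motifs, CTTTGAT or CTTTGTT, lay in a pair of overlapping Satb1 windows and in 8.06% of all windows. The RUNX motif TGTGGT was in none of the 17 windows and in 14% of all windows. The GATA factors' motif, searched as AGATAA, was likewise in none of the 17 and in 9.99% of all windows. A match is a run of letters, not a measured binding site.

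Of the 10 genes, 5 were higher in ESC-derived libraries (Tcf7, Lef1, Gata3, Bcl11b and Dtx1), 4 were lower (Bcl11a, Hes1, Notch2 and Satb1) and Notch1 did not pass the test. The test was edgeR's quasi-likelihood F test with Benjamini-Hochberg adjustment over 16211 genes and a threshold of 0.05. Calls were frequent throughout these data: 30.0% of tested genes were called, 14.8% higher and 15.2% lower. All 10 genes passed the filter on low counts, which the libraries of a single group can meet. Bcl11a, with 0, 86 and 0 ESC-derived counts, and Hes1, with 9, 143 and 5, met it through their LSK libraries. None of the 10 had overlapping values between the groups, which was also true of 49.8% of tested genes. The median absolute log2 fold change was 3.57 for the 10 genes and 0.84 for all tested genes. The 10 genes were chosen with earlier results of these data known, so these comparisons with all tested genes are not independent of the data. Without LSK replicate 2 the 5 higher genes passed again, and of the lower genes 2 did, Satb1 and Hes1.

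**Figure D1:**
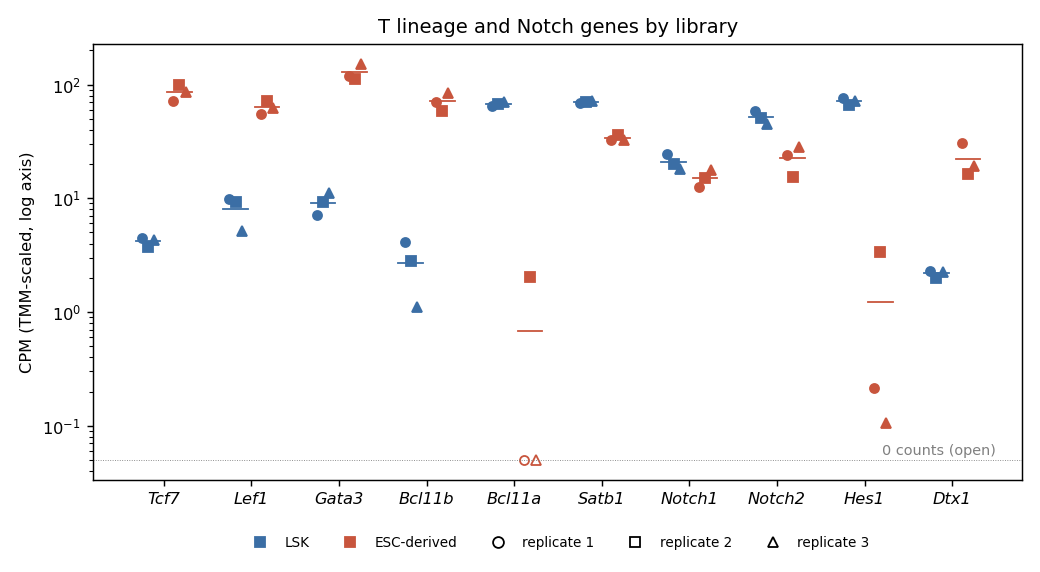
CPM (log scale) of each of the 10 genes in each library, LSK and ESC-derived, with group means; open symbols on the bottom line are libraries with 0 counts. Tcf7, Lef1, Gata3, Bcl11b and Dtx1 lie higher in all 3 ESC-derived libraries, and the lone ESC-derived library with Bcl11a counts, replicate 2, is also the highest of its group for Hes1.

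Tcf7, the gene of TCF-1 (ENSMUSG00000000782, mm10 chromosome 11, 52252371 to 52283014, minus strand), stood at 4.45, 3.74 and 4.33 CPM in the LSK libraries and at 71.1, 99.5 and 86.0 CPM in the ESC-derived ones, here and below in the order of replicates 1 to 3. Every ESC-derived library was above every LSK library. The means were 4.18 ± 0.381 and 85.5 ± 14.2 CPM (SD, n = 3), a 20.5-fold difference and a log2 fold change of 4.35 ± 0.21 (SE; edgeR adjusted p = 3.2e-05).

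Lef1, the other TCF family member of early T cells (ENSMUSG00000027985, chromosome 3, 131110471 to 131224356, plus strand), stood at 9.92, 9.19 and 5.16 CPM in LSK and at 55.4, 71.1 and 62.8 CPM in ESC-derived libraries. LSK replicate 3 was the lowest of all 6, and the groups did not overlap. Lef1 was 7.80-fold higher by means in ESC-derived libraries, a log2 fold change of 2.96 ± 0.30 (SE; edgeR adjusted p = 0.000691).

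Gata3, a zinc finger factor needed from the first T cell stages and also in innate lymphoid cells (ENSMUSG00000015619, chromosome 2, 9857078 to 9890034, minus strand), had 7.16, 9.24 and 11.0 CPM in LSK and 119, 113 and 152 CPM in ESC-derived libraries. All ESC-derived values were above all LSK values. Its log2 fold change was 3.81 ± 0.23 (SE; edgeR adjusted p = 9e-05), a 13.98-fold difference. The marker list of NK and innate lymphoid cells, which also holds Gata3, had 7 of 10 tested genes higher and 1 lower and summed to 38.8 to 46.4 CPM in LSK against 476 to 502 CPM in ESC-derived libraries; its part in the Gata3 difference was not tested.

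Bcl11b, the zinc finger factor that marks commitment to the T lineage (ENSMUSG00000048251, chromosome 12, 107910403 to 108003602, minus strand), had 4.17, 2.82 and 1.11 CPM in LSK and 70.0, 59.0 and 83.9 CPM in ESC-derived libraries. The highest LSK value, of replicate 1, was far below the lowest ESC-derived value. Bcl11b was 26.3-fold higher in ESC-derived libraries, a log2 fold change of 4.71 ± 0.51 (SE; edgeR adjusted p = 0.000918). In all 16 alternatives of the fit, Tcf7, Lef1, Gata3 and Bcl11b passed the threshold, the highest adjusted p being 0.00791, for Bcl11b.

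Bcl11a, the relative of Bcl11b used by stem cells, B cells and plasmacytoid dendritic cells (ENSMUSG00000000861, chromosome 11, 24078056 to 24174123, plus strand), ran the other way. It stood at 64.5, 67.0 and 70.4 CPM in LSK and at 0, 2.03 and 0 CPM in ESC-derived libraries. All 86 ESC-derived counts came from replicate 2. Bcl11a was lower with a log2 fold change of -6.64 ± 1.58 (SE; edgeR adjusted p = 0.0198), and the call was lost without LSK replicate 1, 2 or 3, at adjusted p = 0.0529, 0.0622 and 0.0548. Without ESC-derived replicate 2, Bcl11a was at 0 and at least 501-fold lower against a floor of 12 counts over the group.

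Replicate 2 of the ESC-derived libraries also held most RNA of a list of 9 eosinophil genes, chosen after the data were seen, at 1500 CPM against 99 and 204 CPM in the others and 56.1 to 57.7 CPM in LSK. Prg2, an eosinophil granule protein, had 48227 counts in that library and 2129 and 6461 in replicates 1 and 3, and made up 1139 of the 1500 CPM. The list did not move as a whole: Ccr3 and Il5ra had 0 counts in all ESC-derived libraries, and Siglecf had 114, 50 and 12 there, highest in replicate 1, against 223, 154 and 175 in LSK. By summed CPM, replicate 2 was the highest ESC-derived library in none of the 8 marker and T precursor lists. Strongly expressed genes dominate such sums, so they cannot show a small amount of RNA from other cells. The LSK marker sum, at 1370, 1590 and 1700 CPM in ESC-derived replicates 1 to 3, includes Ly6a, itself higher in those libraries. Whether the RNA of other cells contributed to the Bcl11a counts there was not tested.

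Satb1, a chromatin organiser of lymphoid cells and thymocytes (ENSMUSG00000023927, chromosome 17, 51736187 to 51833290, minus strand), was at 69.4, 70.5 and 71.5 CPM in LSK and at 32.4, 36.3 and 32.7 CPM in ESC-derived libraries. Both groups were tight and did not overlap. It was lower in ESC-derived libraries with a log2 fold change of -1.06 ± 0.14 (SE; edgeR adjusted p = 0.00198), a 2.09-fold difference, and passed in all 16 alternatives.

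Notch1, the receptor that carries the T lineage signal (ENSMUSG00000026923, chromosome 2, 26457903 to 26516663, minus strand), was at 24.6, 20.1 and 18.2 CPM in LSK and at 12.6, 15.0 and 17.9 CPM in ESC-derived libraries. The groups did not overlap, but the lowest LSK value and the highest ESC-derived value nearly met. A log2 fold change of -0.47 ± 0.26 (SE) did not pass the edgeR test (adjusted p = 0.228, 0.101 to 0.49 over 16 alternatives), which does not show that the levels were equal.

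Notch2, the receptor best known in marginal zone B cells and stem cells (ENSMUSG00000027878, chromosome 3, 98013527 to 98150361, plus strand), was at 58.2, 50.7 and 45.3 CPM in LSK and at 24.0, 15.4 and 28.4 CPM in ESC-derived libraries. Its log2 fold change was -1.19 ± 0.26 (SE; edgeR adjusted p = 0.0155). The call was lost without LSK replicate 1 or 2, at adjusted p = 0.056 and 0.0595. Notch4, named for its role after its values were seen, had 1.14 ± 0.552 and 2.51 ± 0.353 CPM (SD, n = 3) and an edgeR adjusted p of 0.291, and Notch3 had 4 counts in LSK and 0 in ESC-derived libraries.

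Hes1, the repressor that is the classic Notch target (ENSMUSG00000022528, chromosome 16, 30064384 to 30067796, plus strand), was at 76.4, 66.5 and 71.8 CPM in LSK and at 0.214, 3.38 and 0.106 CPM in ESC-derived libraries. Hes1 was 58.1-fold lower, a log2 fold change of -5.86 ± 1.24 (SE; edgeR adjusted p = 0.0128), and it passed in all 16 alternatives. Of its 157 ESC-derived counts, 143 came from replicate 2, the library that held the Bcl11a counts, and without that library the fitted log2 fold change was -8.80.

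Dtx1, a ubiquitin ligase induced by Notch (ENSMUSG00000029603, chromosome 5, 120680202 to 120711927, minus strand), ran opposite to Hes1. It stood at 2.29, 1.99 and 2.26 CPM in LSK and at 30.5, 16.4 and 19.1 CPM in ESC-derived libraries, with ESC-derived replicate 1 the highest. The log2 fold change was 3.33 ± 0.36 (SE; edgeR adjusted p = 0.000914), or 10.1-fold, and it passed in all 16 alternatives.

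**Figure D2:**
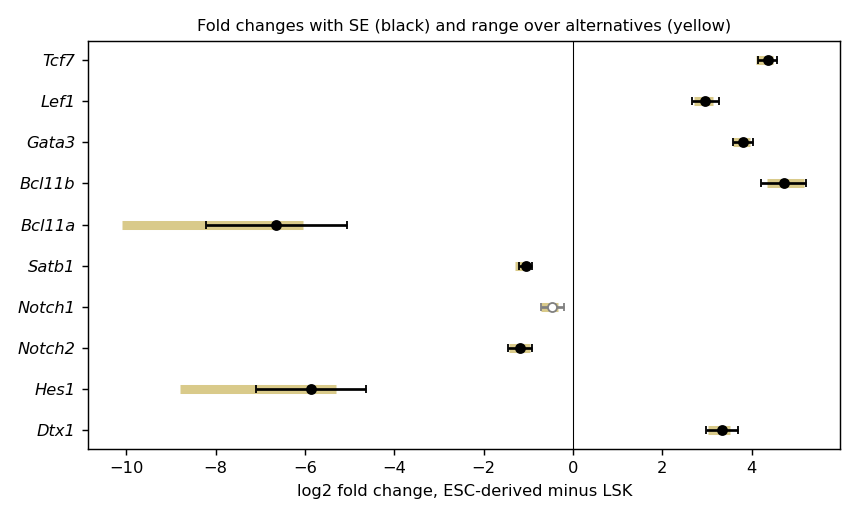
Log2 fold change of the 10 genes, ESC-derived minus LSK, with SE; the yellow bar is the range over the alternatives that leave a group with counts (15 for Bcl11a, 16 for the other genes). No bar crosses 0, and Bcl11a and Hes1 have the widest.

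Related genes, 4 pairs in all, were compared within each library, which removes library scaling, as log2 ratios of counts plus a pseudocount of 4. Bcl11b over Bcl11a was -3.93, -4.53 and -5.88 in LSK, against 9.53, 4.80 and 9.96 in ESC-derived libraries. All ESC-derived ratios were above all LSK ratios, with replicate 2 the lowest of its group. Dtx1 over Hes1 had the same order, at -5.01, -5.00 and -4.93 in LSK and 6.63, 2.25 and 6.66 in ESC-derived libraries. For both pairs this order follows from the single genes, which moved in opposite directions without overlap, so it is not a separate result. Tcf7 over Lef1 was -1.14, -1.28 and -0.25 in LSK and 0.36, 0.49 and 0.45 in ESC-derived libraries. Notch1 over Notch2 was -1.24, -1.33 and -1.31 in LSK and -0.93, -0.04 and -0.67 in ESC-derived libraries. The value of 0 in these ratios depends on gene length, so only their differences between groups compare the libraries. Per kilobase of merged exons the Tcf7 mean was above that of Lef1 in both groups, and with the longest transcript it was below in LSK, at 1.69 against 2.21 CPM per kb. The differences of mean log2 ratios, ESC-derived minus LSK, were 12.87 for Bcl11b over Bcl11a, 10.16 for Dtx1 over Hes1, 1.32 for Tcf7 over Lef1 and 0.75 for Notch1 over Notch2. Bcl11a had 0 counts in ESC-derived replicates 1 and 3, so the size of the first difference depends on the pseudocount. It was 14.26 with a pseudocount of 1 and 11.67 with 12, and for Dtx1 over Hes1 the values were 10.53 and 9.51. Each had an exact two-sided permutation p of 0.1, also after adjustment over the 4 pairs, which is the smallest p that 3 against 3 libraries allow.

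**Figure D3:**
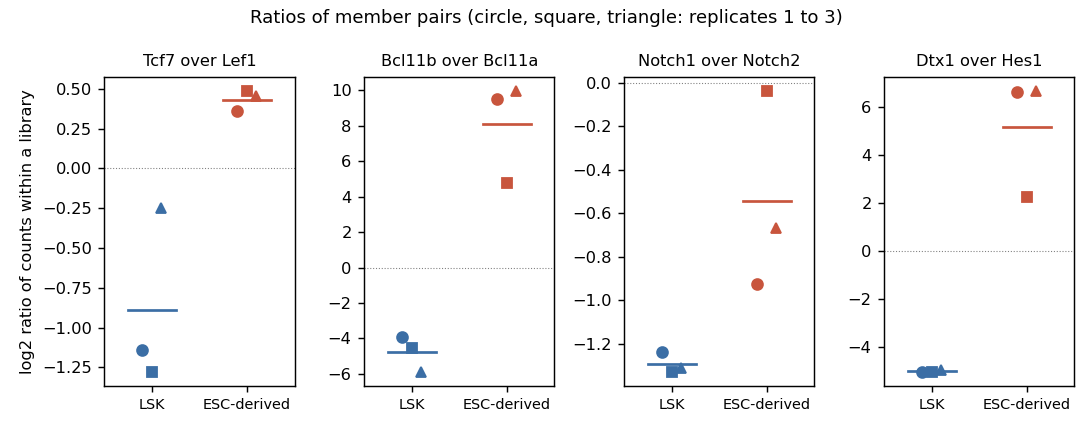
Log2 ratio of counts within each library for the 4 gene pairs, with each group's mean. LSK and ESC-derived libraries do not overlap in any pair, and the position of 0 depends on gene length.

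Per kilobase of merged exons, Hes1 had the highest level of the 10 genes in LSK, at 35.1 ± 2.42 CPM per kb (SD, n = 3). Bcl11a at 5.11 ± 0.225, Notch2 at 4.77 ± 0.603 and Satb1 at 3.70 ± 0.0549 CPM per kb came next, with Bcl11a and Notch2 overlapping. Gata3 followed at 2.30 ± 0.489, then Tcf7 at 1.59 ± 0.145 and Notch1 at 1.47 ± 0.232, which overlapped. Lef1 at 0.921 ± 0.292, Dtx1 at 0.414 ± 0.0313 and Bcl11b at 0.333 ± 0.189 CPM per kb were lowest, the last pair overlapping.

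In ESC-derived libraries the order of levels per kilobase began with Tcf7 at 32.6 ± 5.43 and Gata3 at 32.2 ± 5.32 CPM per kb (SD, n = 3), which overlapped. Bcl11b at 8.75 ± 1.54 and Lef1 at 7.18 ± 0.892 overlapped as well, and Dtx1 stood at 4.18 ± 1.42. Notch2 at 2.10 ± 0.614 and Satb1 at 1.78 ± 0.114 overlapped. Notch1 at 1.06 ± 0.186, Hes1 at 0.605 ± 0.912 and Bcl11a at 0.0514 ± 0.0890 CPM per kb closed the order, neighbours overlapping. Hes1 thus went from the highest level to the ninth place, and Tcf7 from the sixth to the highest. With the longest transcript as the length, Satb1 stood at 11.3 CPM per kb and second place in LSK, and Gata3 at 39.8 came before Tcf7 at 34.6 CPM per kb in ESC-derived libraries.

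**Figure D4:**
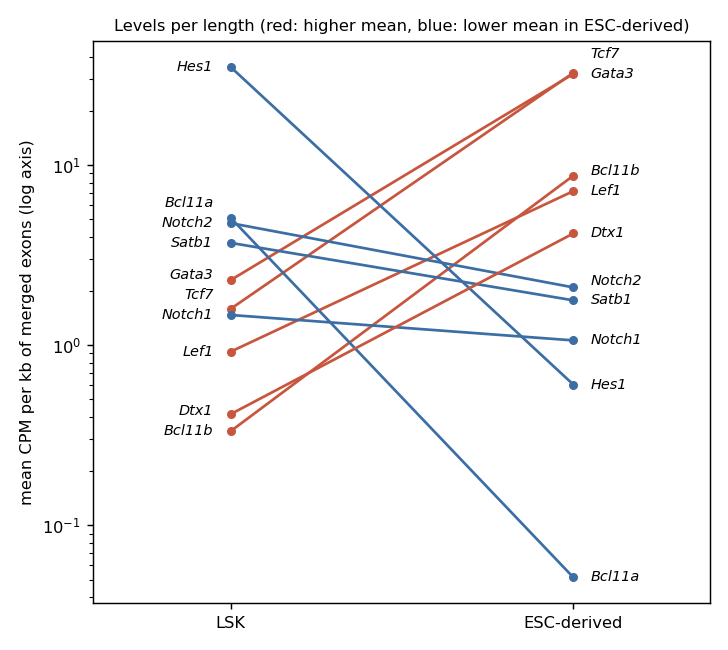
Mean CPM per kb of merged exons (log scale) of the 10 genes in LSK and in ESC-derived libraries, joined by lines, red where the ESC-derived mean is higher and blue where it is lower. Hes1 and Bcl11a drop from the top of LSK to the bottom of the ESC-derived order.

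The rest of the Notch pathway was examined by role. Counts for these and the later lists stand beside 14.8% of all tested genes called higher and 15.2% called lower. No list was tested as a set. Among 4 tested ligand genes, 1 was higher and 3 were lower, and without LSK replicate 2 there were 0 higher and 2 lower. Jag1 had 12, 0 and 0 counts in LSK and 1014, 218 and 162 in ESC-derived libraries, a ratio of 124 (95% exact counting interval 41.9 to 601; edgeR adjusted p = 0.0236), and the call was lost without LSK replicate 2 or 3 or ESC-derived replicate 1 (adjusted p up to 0.0838). Jag2 had 701 counts in LSK and 2 in ESC-derived libraries (ratio 330, 29.1 to 6540; edgeR adjusted p = 0.00493). Dlk1 and Dll4, with 188 and 118 LSK counts, were at 0 in ESC-derived libraries, at least 14.7-fold and 9.25-fold lower (highest edgeR adjusted p over the alternatives 0.0847 and 0.0986). The lower count was 1 with the counts divided by 4 and 1 with a filter of 50 counts. Ligands had a median log2 fold change of -8.18, or -3.54 with the genes at 0 set to their bound. Counting intervals and floors cover counting error only.

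Of 15 tested genes for receptor maturation and cleavage, 5 were higher and 2 lower, and the median log2 fold change was 0.45 against -0.07 for all genes. Psen2, a catalytic subunit of gamma-secretase, stood at 23.6, 21.5 and 20.3 CPM in LSK and at 149, 125 and 159 CPM in ESC-derived libraries (log2 fold change 2.73 ± 0.16 SE, edgeR adjusted p = 5.9e-05). Psenen, another subunit, went from 99.5 ± 18.0 to 184 ± 27.1 CPM and Furin, the protease that cuts the receptor precursor, from 17.1 ± 2.67 to 45.7 ± 20.5 CPM. Aph1c, a further gamma-secretase subunit, fell from 13.5 ± 2.76 to 0.356 ± 0.0403 CPM (edgeR adjusted p = 0.000315), and Mfng, a Fringe glycosyltransferase, from 110 ± 11.7 to 72.2 ± 6.70 CPM. Without LSK replicate 2 the counts were 1 higher and 1 lower. The higher count was 2 without LSK replicate 1 and 3 when LSK replicate 3 or ESC-derived replicate 2 or 3 was left out. The lower count was 1 when LSK replicate 1 or ESC-derived replicate 1 or 2 was left out.

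In the nuclear complex, 1 of 15 tested genes was higher and 2 were lower, beside 14.8% and 15.2% of all tested genes. The median log2 fold change was 0.05. The corepressor Ncor1 was higher (247 ± 20.6 to 364 ± 39.4 CPM, edgeR adjusted p = 0.0143). The coactivator Maml3 fell from 34.0 ± 7.86 to 0.265 ± 0.303 CPM (edgeR adjusted p = 0.00156), and Kat2a, an acetyltransferase, from 26.2 ± 3.68 to 10.4 ± 4.42 CPM. Rbpj, named for its role after its values were seen, had 45.7 ± 3.77 and 47.4 ± 9.96 CPM (edgeR adjusted p = 0.875). The higher count fell to 0 without LSK replicate 2 or 3, and the lower count was 1 when any 1 LSK library or ESC-derived replicate 1 was left out.

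Modulators of the pathway, 15 tested, had 1 higher gene, Dtx1, and 3 lower ones, beside 14.8% and 15.2% of all tested genes. Their median log2 fold change was -0.35. The ubiquitin ligase Nedd4 fell from 61.6 ± 3.81 to 11.3 ± 2.50 CPM (edgeR adjusted p = 0.000447), Dtx3, a Deltex relative of Dtx1, from 29.8 ± 3.70 to 10.4 ± 3.28 CPM, and Nedd4l from 7.24 ± 1.998 to 2.18 ± 0.605 CPM. Without LSK replicate 2 the list had 1 higher and 2 lower genes, and without ESC-derived replicate 3 it had 2 higher ones.

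Known Notch targets, 12 tested of 17, had 4 higher (Bhlhe40, Tcf7, Gata3 and Dtx1) and 3 lower genes (Hes1, Hes5 and Myc), with a median log2 fold change of -0.33. Bhlhe40, a basic helix-loop-helix repressor also induced by T cell activation, went from 65.8 ± 3.43 to 503 ± 73.8 CPM (edgeR adjusted p = 3e-05). Hes5 had 304 LSK counts and 4 ESC-derived counts (ratio 71.5, 12.4 to 2860). Myc went from 155 ± 16.6 to 104 ± 20.6 CPM (edgeR adjusted p = 0.0463). The lower count fell to 1 without any 1 LSK replicate and without ESC-derived replicate 1 or 3. Nrarp and Il2ra, named for their roles after their values were seen, did not pass: Nrarp had 9.96 ± 2.99 and 7.79 ± 1.85 CPM and Il2ra 29.2 ± 0.862 and 26.7 ± 11.7 CPM.

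**Figure D5:**
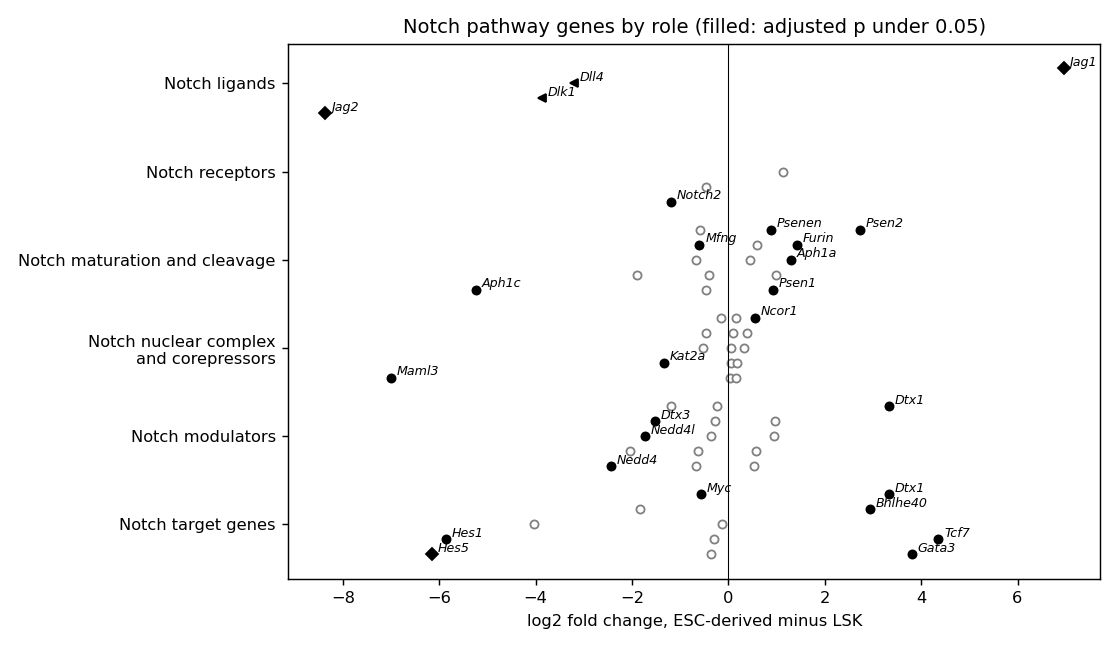
Log2 fold change, ESC-derived minus LSK, of the tested Notch pathway genes by role; circles are fitted values, diamonds ratios of summed counts where a group holds 12 counts or fewer, triangles bounds for genes at 0, filled where the adjusted p is under 0.05. Each role holds genes on both sides of 0.

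Partners of TCF/LEF proteins, 16 tested, had 3 higher and 4 lower genes, with a median log2 fold change of -0.55. Besides Tcf7 and Lef1, Aes, a short Groucho relative, was higher (90.8 ± 9.49 to 130 ± 13.1 CPM, edgeR adjusted p = 0.0297). Ctnnb1, which encodes beta-catenin, fell from 82.4 ± 9.19 to 44.9 ± 4.58 CPM (edgeR adjusted p = 0.00668). Bcl9, its coactivator, went from 51.0 ± 7.70 to 1.54 ± 1.84 CPM and Tcf7l2, a TCF relative, from 16.4 ± 1.67 to 0.854 ± 0.938 CPM. Without LSK replicate 2 the list had 2 higher and 3 lower genes.

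Partners of BCL11 and GATA proteins, 19 tested, had 5 higher and 5 lower genes, with a median log2 fold change of -0.37. These calls include genes of the set itself, Gata3 and Bcl11b among the higher and Satb1 and Bcl11a among the lower. Mbd2, a subunit of the NuRD chromatin complex, was higher, at 27.3 ± 1.86 to 104 ± 17.4 CPM (edgeR adjusted p = 0.000418). Chd4, the ATPase of that complex, was lower at 66.9 ± 5.81 to 39.1 ± 5.25 CPM (edgeR adjusted p = 0.0133). Gata2, the stem cell relative of Gata3, was at 209, 212 and 244 CPM in LSK and at 0, 3.21 and 0.169 CPM in ESC-derived libraries (edgeR adjusted p = 0.00743), replicate 2 again the highest of its group. There were 4 higher and 2 lower genes without LSK replicate 2, and 3 lower ones without LSK replicate 1 or 3.

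A list of 26 T lineage factors, which holds several of the 10 genes, had 15 higher and 4 lower genes and a median log2 fold change of 1.21. Ikzf3, an Ikaros family factor, went from 5.66 ± 1.03 to 157 ± 1.88 CPM (edgeR adjusted p = 1.6e-05). Ets1 went from 24.5 ± 6.27 to 296 ± 13.7 CPM. Myb, needed in progenitors and thymocytes, fell from 99.9 ± 2.49 to 9.16 ± 2.23 CPM (edgeR adjusted p = 0.000103). Without LSK replicate 2 there were 12 higher and 2 lower genes, and the lower count was also 2 without LSK replicate 1 or ESC-derived replicate 1 or 3.

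Progenitor factors that are silenced at T lineage commitment had 12 of 14 genes lower and 0 higher, with a median log2 fold change of -6.22, and 10 lower without LSK replicate 2. Bcl11a is among the 12. Some of the 12 are also counted in later lists, Meis1, Hoxa9 and Gata2 as LSK markers and Erg as an endothelial marker. Lyl1 fell from 81.4 ± 4.95 to 1.62 ± 0.0490 CPM, Mef2c from 163 ± 8.04 to 0.868 ± 0.306 CPM and Meis1 from 46.9 ± 12.6 to 0.135 ± 0.0373 CPM. The count of 0 higher genes held in all 16 alternatives of the fit.

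Genes of T precursors, the stages at which Notch acts, had 8 of 12 tested genes lower and 0 higher, with a median log2 fold change of -5.17, or -4.30 with bounds. Kit, the gene of the antigen in which the gates differ, is among the lower genes and in the summed list. Dntt, the template-free DNA polymerase of lymphoid precursors, went from 275 ± 23.3 to 0.172 ± 0.222 CPM. Among genes named for their roles after their values were seen, Rag1, a recombinase subunit, had 8 counts in LSK and 0 in ESC-derived libraries, and Ptcra, the pre-T receptor chain, had 0 counts in all 6. The summed list was at 1460 to 1700 CPM in LSK against 88.4 to 143 CPM in ESC-derived libraries. The lower count was 4 without LSK replicate 1 or 2 and 5 without LSK replicate 3.

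Markers of other cells moved with the groups. All 16 T cell markers were higher, with a median log2 fold change of 6.44. B and plasma cell markers, 7 of 12 lower, summed to 16000 to 20900 CPM in LSK against 190 to 234 CPM in ESC-derived libraries, and plasmacytoid dendritic cell markers, 2 higher and 6 lower of 9 tested, to 484 to 535 and 247 to 276 CPM; Bcl11a, also a gene of both cell types, moved the same way. Myeloid markers had 5 higher and 2 lower of 12 and endothelial markers 7 lower of 10 tested. The LSK marker list had 3 higher and 10 lower of 13. It holds the genes of the sort, Ly6a among the higher and Kit, in whose protein the gates differ, among the lower. Without LSK replicate 2 the lower counts were 6 for B and plasma cell, 2 for plasmacytoid dendritic cell (with 1 higher), 1 for myeloid, 4 for endothelial and 0 for NK and innate lymphoid markers. The plasmacytoid list had 3 lower genes when LSK replicate 1 or 3 or ESC-derived replicate 3 was left out, and 1 higher gene in the last case. Leaving out LSK replicate 1 or ESC-derived replicate 1 gave the myeloid list 1 lower gene. How far these cell types contribute to the differences of the 10 genes was not tested.

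With scaling by library totals alone, the median log2 fold change of all genes shifted by -0.25, and 36.5% of calls were higher, against 49.3% with TMM. No sign of a log2 fold change of the 10 genes turned in any of the 16 alternatives. The libraries carry no strand, so reads of overlapping genes cannot be told apart. Gm43352, antisense to Lef1 and chosen after its values were seen, had 242, 359 and 502 counts in LSK and 396, 220 and 334 in ESC-derived libraries. Inside the Satb1 locus C230085N15Rik, chosen likewise, had 5.77 and 2.40 CPM. Hes1, Bcl11b and Dtx1 overlap no listed gene.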

How the data were processed

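The deposited table holds estimated counts per gene for 6 libraries. HISAT, StringTie and the build mm10 appear, without versions, per the submitters' processing notes, and the annotation used is not given in the sources used here. Column names stand in a single header field and were assigned in their order. Of the 55401 IDs, 55141 matched GENCODE M21. Whole values cluster on multiples of 4 (40.13 to 47.17% of values from 1 to 20), so 4 counts were taken as 1 fragment in exact 95% intervals and in the floor of 12 counts over a group.

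Counts were filtered with filterByExpr, scaled by TMM and fitted by group with edgeR 4.0.16 (R 4.3.3), robust quasi-likelihood F test, adjusted p under 0.05. CPM use TMM-scaled totals. The SE is the log2 fold change divided by the square root of F. Permutation tests used SciPy 1.17.1. On simulated counts with known changes the test missed part of them, most often the smallest, so a gene that did not pass is not shown to be unchanged. The 16 alternatives were other scalings (RLE, upper quartile, library totals), filters (none, at least 50 counts), counts divided by 4, no immunoglobulin genes, DESeq2 1.42.0, limma-voom 3.58.1, a replicate block and each library left out.

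The 10 genes and the 18 gene lists were chosen with earlier results of these data known, and the eosinophil list after its values were seen. Genes named were the 10, up to 3 higher and 3 lower per list by smallest adjusted p, Kit and Ly6a, and those stated as chosen afterwards. A gene of the nuclear complex list is not reported here. The labels do not say whether replicate numbers pair the libraries, so this is not known. Same-numbered deviations correlated at 0.031, -0.013 and 0.031, and different-numbered ones at -0.036 to 0.013.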

Additional observations from a re-analysis of the deposited data

How the results depend on the processing

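The 10 genes kept their direction in every alternative. Of their 160 log2 fold changes under alternatives, 155 stayed on the same side of the threshold and 5 no longer passed, 3 for Bcl11a and 2 for Notch2, each on leaving out an LSK library. The number of the 10 genes called lower ranged from 2 to 4 when 1 library was left out, with 2 without LSK replicate 1 and 2 without LSK replicate 2. Over all genes, 4861 were called in the main analysis and 2716 to 4603 with 1 library left out, of which 1466 to 2163 were higher and 1250 to 2440 lower; the lowest counts were without LSK replicate 2. The cause was not tested. With the replicate block, 3220 genes were called, 1488 of them lower, and the ligands called lower were 1 in place of 3. Whether the numbers pair the libraries is not known. DESeq2 called 6299 genes and limma-voom 5689. The ratios of the 4 pairs kept their direction with pseudocounts of 1 and 12. Of 20 levels per kilobase, 11 moved by more than 1 SD with the longest transcript as the length. No library had separate counts of strands, and 3 libraries a group limit every test here.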

Other observations

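A transcript inside the Gata3 locus stood apart from its host in one respect. The gene 9230102O04Rik, annotated on the same strand, had 0 counts in all 3 LSK libraries, although Gata3 itself was at 7.16 to 11.0 CPM there, and 128, 413 and 70 counts in ESC-derived replicates 1 to 3. Replicate 2, where it was highest, was the lowest of the ESC-derived libraries for Gata3. A630014C17Rik, antisense to Tcf7, had 52 counts in ESC-derived replicate 2 and 0 in the other 5 libraries. These genes were chosen after their values were seen, and no strand information separates them from their hosts.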
